A study of Mus musculus with 17 samples.

Results

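The expression of 8 homeostatic microglia genes was examined: *Tmem119*, *P2ry12*, *Cx3cr1*, *Sall1*, *Gpr34*, *Fcrls*, *Siglech* and *Csf1r*. They were chosen by symbol, not by a measured value, and all 8 were found among the 20328 genes of the RNA-seq table and the 26646 genes of the single-cell RNA-seq (scRNA-seq) table. Only *Sall1* had a region in the ATAC-seq table, which maps open chromatin, and none had a region in the CUT&RUN table for H3K27ac, an acetylated histone mark of active regulatory DNA. The samples were brain tissue of wild-type female ICR mice, 8 weeks old at surgery, in 3 groups. The 6-OHDA group received 6-hydroxydopamine (10 µg/µl), a toxin taken up by dopaminergic neurons, on one side of the substantia nigra, followed by saline. The 6-OHDA+NDST3 group received the same lesion and, 5 days later, 2 µl of an adeno-associated virus (serotype AAV9) carrying human *NDST3*, a heparan sulfate-modifying enzyme. The CMV promoter used is not specific to 1 cell type, and which cells expressed the transgene was not examined here. Sham mice had no 6-OHDA. RNA-seq covered 2 sham, 1 6-OHDA and 2 6-OHDA+NDST3 libraries, with 51003699 to 70533326 counts each, and the scRNA-seq table gave the means of 9 clusters for 1 6-OHDA and 1 6-OHDA+NDST3 library. The sham scRNA-seq library was not analysed here.

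Microglia are the resident macrophages of the brain, and in the healthy tissue they carry a set of surface receptors and regulators that other brain cells largely lack. *Sall1* encodes a transcription factor that keeps microglial identity, *Csf1r* the receptor for the survival factors CSF1 and IL-34, *Cx3cr1* the receptor for neuronal fractalkine, and *P2ry12* and *Gpr34* receptors for nucleotides and for lysophosphatidylserine. *Tmem119*, *Fcrls* and *Siglech* encode membrane proteins used as microglial markers, and injury or degeneration is commonly accompanied by lower homeostatic and higher phagocytic gene expression per microglial cell.

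Upstream sequences were taken from RefSeq (GRCm38.p6), which listed promoters for 5 of the 8 genes. *Tmem119*, *Gpr34* and *Csf1r* were not among them. The 250 bases before the annotated start are shown for *Cx3cr1*, which had the largest rise among these 5 genes that passed the test, for *P2ry12*, whose locus overlaps another gene, and for *Sall1*, the member with an ATAC-seq region. They lie on the minus strand at chr9:120068297-120068546, chr3:59262986-59263235 and chr8:89044163-89044412, outside the annotated span of each gene, and for *Sall1* the most upstream of 3 listed starts was used. Capitals mark a match to the RUNX core TGTGGT on either strand.
Cx3cr1: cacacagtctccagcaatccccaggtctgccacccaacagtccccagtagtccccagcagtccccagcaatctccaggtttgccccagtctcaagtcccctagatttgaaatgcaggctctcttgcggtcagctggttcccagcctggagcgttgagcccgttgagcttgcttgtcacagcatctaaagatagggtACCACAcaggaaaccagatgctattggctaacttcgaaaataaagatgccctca
P2ry12: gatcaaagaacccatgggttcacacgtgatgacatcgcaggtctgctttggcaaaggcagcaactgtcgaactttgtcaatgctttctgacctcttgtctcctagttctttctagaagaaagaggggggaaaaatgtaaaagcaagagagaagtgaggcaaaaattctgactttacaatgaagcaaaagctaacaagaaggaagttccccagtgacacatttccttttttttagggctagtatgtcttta
Sall1: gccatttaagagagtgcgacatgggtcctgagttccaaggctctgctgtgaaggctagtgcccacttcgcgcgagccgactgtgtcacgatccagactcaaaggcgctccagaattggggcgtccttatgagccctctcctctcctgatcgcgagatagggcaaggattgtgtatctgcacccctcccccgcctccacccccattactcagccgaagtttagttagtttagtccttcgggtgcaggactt
The RUNX core was in the 250 bases of 3 of the 5 genes (*Fcrls*, *Siglech* and *Cx3cr1*) and in 14.0% of 32851 RefSeq promoters of that length, counting both strands. The PU.1 core GAGGAA was found in 1 of the 5 genes (*Fcrls*) and 23.3% of all promoters, and the MAF core TGCTGA in 1 of the 5 (*Fcrls*) and 16.1%. These matches describe the letters in the window and nothing about binding.

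All 8 genes had their highest RNA-seq read count scaled to library size (CPM) in the 6-OHDA library and their lowest in the sham libraries, with the 2 6-OHDA+NDST3 libraries in between and no overlap. This order was shared by 19.9% of the 19300 genes tested. In TPM, a level scaled by transcript length, 6 of 8 members kept the order, against 14.8% of genes, with *Siglech* and *Fcrls* as the exceptions. In a tissue sample more cells of a type and more RNA per cell cannot be told apart. Nothing in the labels says that libraries of a group came from separate animals, so the p-values measure the spread between these libraries, which may be technical.

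**Figure D1:**
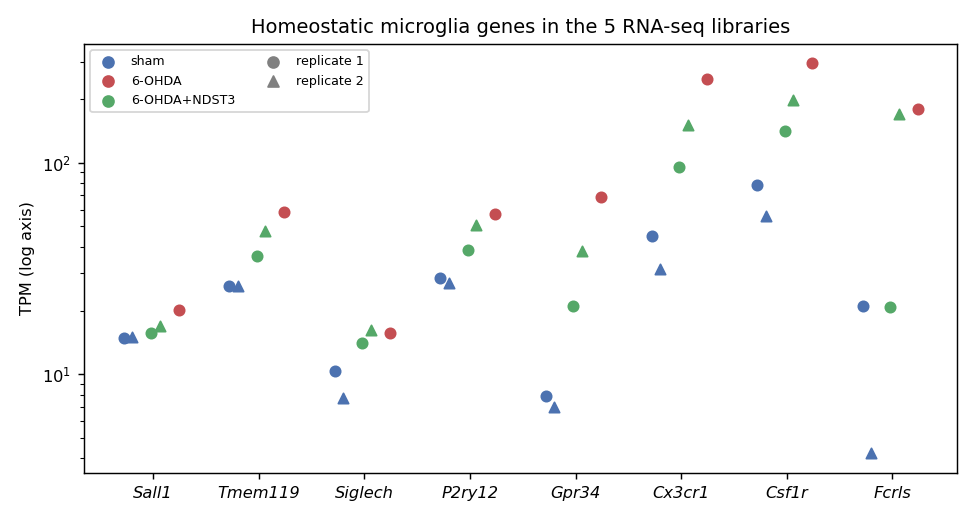
TPM of the 8 genes (log axis) in each RNA-seq library, with groups by colour and replicates by symbol. The 6-OHDA library is the highest point for every gene except *Siglech*, where the second 6-OHDA+NDST3 library is at 16.2 against 15.6 TPM, and *Fcrls* spreads most within groups.

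Among the receptors for growth and guidance cues, *Csf1r* was the member with the highest TPM in each of the 5 libraries. Its TPM was 78.3 and 56.0 in sham, 294 in 6-OHDA, and 141 and 198 in 6-OHDA+NDST3. *Cx3cr1*, the fractalkine receptor, measured 44.9 and 31.4 TPM in sham, 248 in 6-OHDA, and 95.2 and 151 in 6-OHDA+NDST3. The groups of both genes were separate, and the 6-OHDA+NDST3 values lay nearer to sham than to 6-OHDA in the first replicate.

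The purinergic receptor gene *P2ry12* measured 28.4 and 26.9 TPM in sham, 56.9 in 6-OHDA, and 38.5 and 50.5 in 6-OHDA+NDST3. *Gpr34* measured 7.93 and 6.97 TPM in sham, the lowest member in each sham library apart from *Fcrls* in the second, and 68.7 in 6-OHDA and 21.1 and 38.4 in 6-OHDA+NDST3. The range of *Gpr34* was therefore wider than that of *P2ry12*, although both were ordered alike. Reads over these loci are uncertain where another gene overlaps, since use of strand in counting is not stated in the sources used here. *P2ry12* overlaps *Med12l*, whose log2 fold change was -1.76 in 6-OHDA against sham (adjusted p = 0.011), opposite to *P2ry12*. *Gpr34* overlaps *Cask*, with a log2 fold change of -0.37 (adjusted p = 0.0863). Non-coding genes overlap *Cx3cr1*, *Sall1*, *Siglech* and *Csf1r*.

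Of the membrane markers, *Tmem119* measured 26.2 and 26.2 TPM in sham, 58.6 in 6-OHDA, and 36.4 and 47.6 in 6-OHDA+NDST3. *Siglech*, a sialic acid-binding lectin gene, measured 10.4 and 7.70 TPM in sham, 15.6 in 6-OHDA, and 14.1 and 16.2 in 6-OHDA+NDST3, so that the treated and lesioned groups overlapped on this scale. The transcription factor gene *Sall1* had the narrowest range, with 14.8 and 15.0 TPM in sham, 20.1 in 6-OHDA, and 15.7 and 16.9 in 6-OHDA+NDST3.

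*Fcrls*, an Fc receptor-like gene, stood apart from the other members in its spread within groups. It measured 21.1 and 4.22 TPM in sham, 178 in 6-OHDA, and 20.8 and 170 in 6-OHDA+NDST3. The 2 treated libraries thus sat at a sham-like and a 6-OHDA-like level, 7.97-fold apart in CPM, and the sham libraries were 4.84-fold apart. For the other 7 genes the libraries of a group were at most 1.76-fold apart.

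In 6-OHDA against sham, 7 of the 8 genes rose by edgeR's quasi-likelihood test at an adjusted p under 0.05, where 18.8% of all genes tested were higher. The single 6-OHDA library was assumed to vary like the others. The largest of these rises were those of *Gpr34* with a log2 fold change of 3.01 ± 0.377 (SE; 8.05-fold; edgeR adjusted p = 0.00869), *Cx3cr1* with 2.87 ± 0.314 (7.30-fold; adjusted p = 0.00823) and *Csf1r* with 2.33 ± 0.266 (5.02-fold; adjusted p = 0.00847). *Tmem119* (1.35 ± 0.164; adjusted p = 0.00859), *P2ry12* (1.23 ± 0.171; adjusted p = 0.00958) and *Siglech* (1.06 ± 0.205; adjusted p = 0.018) rose by 2.09- to 2.55-fold. *Sall1* rose by 1.54-fold (log2 fold change 0.62 ± 0.109; adjusted p = 0.0143). *Fcrls* had the largest fitted change, 4.03 ± 1.35, and did not pass (edgeR adjusted p = 0.074).

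By the threshold stated for the study, at least a 2-fold change with an unadjusted p under 0.05, 7 members were higher, all but *Sall1*, against 14.4% of genes. The 6-OHDA library was above both sham libraries for 8 of 8 members and 45.3% of genes. Without either sham replicate, 1 sham library was left, and no member and no other gene passed at an adjusted p under 0.05. All 8 log2 fold changes stayed positive there. They ran from 0.62 for *Sall1* to 5.56 (without the first) or 3.29 (without the second) for *Fcrls*. With the replicate number as a block, 5 of 8 members passed, and 1008 of 19300 genes were higher.

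**Figure D2:**
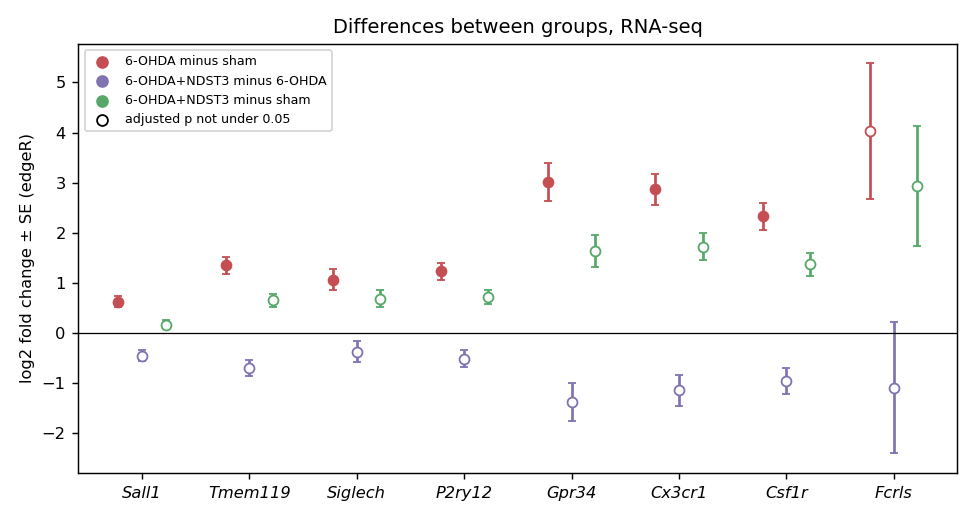
Log2 fold change with its standard error (edgeR) of the 8 genes in the 3 comparisons, with open symbols where the adjusted p was not under 0.05. Each gene is positive in both comparisons with sham and negative in 6-OHDA+NDST3 minus 6-OHDA, and *Fcrls* has the widest errors.

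In 6-OHDA+NDST3 against 6-OHDA, the log2 fold change was negative for all 8 genes and none passed edgeR's adjusted threshold, where 6.59% of genes were lower. Both 6-OHDA+NDST3 libraries were below the 6-OHDA library in CPM for 8 of 8 members and 43.2% of genes. This comparison uses the same single 6-OHDA library as the one above, so the 2 are not independent. The values were -1.38 ± 0.372 for *Gpr34* (adjusted p = 0.0652), -1.15 ± 0.313 for *Cx3cr1* (adjusted p = 0.0665) and -0.96 ± 0.268 for *Csf1r* (adjusted p = 0.0696). They were -0.70 ± 0.165 for *Tmem119* (adjusted p = 0.0516), -0.51 ± 0.173 for *P2ry12* (adjusted p = 0.0999), -0.46 ± 0.109 for *Sall1* (adjusted p = 0.0523) and -0.38 ± 0.207 for *Siglech* (adjusted p = 0.247). For *Fcrls* the value was -1.09 ± 1.31 (adjusted p = 0.576), and it was -0.26 without the first and -3.29 without the second 6-OHDA+NDST3 replicate. Unadjusted p-values were under 0.05 for 6 of 8 members and 37.9% of genes, and *Gpr34* and *Cx3cr1* were lower by the 2-fold threshold, which 8.37% of genes met.
The count of lower members depended on the processing. DESeq2 called 5, with 2463 of 19300 genes lower, and 5 also passed edgeR's test without the second 6-OHDA+NDST3 replicate, with 1449 of 19168 genes lower.

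In 6-OHDA+NDST3 against sham, all 8 log2 fold changes were positive, and no member and 0% of genes were higher by edgeR's adjusted p. Both 6-OHDA+NDST3 libraries were above both sham libraries in CPM for 8 of 8 members and 26.5% of genes. An unadjusted p under 0.05 was reached by 6 of 8 members and 2744 genes, and DESeq2 called 5 members, with 827 genes higher and 196 lower in all. The 2-fold threshold was met by 3 members, against 4.78% of genes: *Cx3cr1* (log2 fold change 1.72 ± 0.272; edgeR adjusted p = 0.152), *Gpr34* (1.64 ± 0.327; adjusted p = 0.168) and *Csf1r* (1.37 ± 0.230; adjusted p = 0.158). *P2ry12* was at 0.72 ± 0.145, *Siglech* at 0.69 ± 0.173, *Tmem119* at 0.65 ± 0.139 and *Sall1* at 0.17 ± 0.0905. *Fcrls* was at 2.94 ± 1.20, and its lowest value with 1 library left out was 0.75.

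The make-up of the summed signal of the 8 genes also differed between libraries. Summed TPM was 232 and 174 in sham, 940 in 6-OHDA, and 382 and 688 in 6-OHDA+NDST3. *Sall1* made up 6.40% and 8.58% of this sum in sham, 2.13% in 6-OHDA, and 4.10% and 2.45% in 6-OHDA+NDST3. *Tmem119* made up 11.3% and 15.0% in sham, 6.23% in 6-OHDA, and 9.51% and 6.91% in 6-OHDA+NDST3. *Cx3cr1* had a larger share in 6-OHDA, with 19.4% and 18% in sham and 26.3% in 6-OHDA. *Fcrls* made up 9.08% and 2.42% in sham, 19% in 6-OHDA, and 5.44% and 24.8% in 6-OHDA+NDST3. These shares are parts of 1 sum, so a larger share of one gene lowers the others.

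A second yardstick was the median CPM of 8 other microglial marker genes. In each library this median lay midway between *P2ry13* and *Olfml3*, so the ratios rest on those genes. The log2 ratio of *Sall1* to this median was 0.64 and 1.23 in sham, -0.99 in 6-OHDA, and -0.05 and -0.66 in 6-OHDA+NDST3. That of *Siglech* was -0.94 and -0.74 in sham, -2.31 in 6-OHDA, and -1.30 and -1.88 in 6-OHDA+NDST3. *P2ry12* went from 0.44 and 0.93 in sham to -0.62 in 6-OHDA, and *Tmem119* from 0.15 and 0.76 to -0.74. For these 4 genes, each of which rose by the test above, the ratio to this median was thus lower in the 6-OHDA library than in either sham library. Single genes of the yardstick differed: the log2 fold change in 6-OHDA against sham was 0.55 for *Sparc* and 0.90 for *Slc2a5*. Both were below the values of *Tmem119*, *P2ry12* and *Siglech*, *Sall1* lay between them, and the rest of the yardstick genes were above all 4. For *Csf1r* the ratio to the median was 2.53 and 2.64 in sham and 2.39 in 6-OHDA. For *Cx3cr1* it was 1.67 and 1.73 in sham and 2.05 in 6-OHDA, and for *Gpr34* -0.93 and -0.84 in sham and -0.40 in 6-OHDA. For *Fcrls* it was -0.26 and -1.94 in sham and 0.78 in 6-OHDA. In all, 5 of the 8 ratios were lower and 3 higher in 6-OHDA than in both sham libraries. The ratios were described and not tested, and tissue values may include other cells or, as for *P2ry12*, an overlapping gene. CPM is not scaled by transcript length, so it does not rank genes. *Sall1* had a higher sham CPM (33.45 and 33.44) than *Tmem119* (23.92 and 24.22). Its sham TPM was lower (14.8 and 15.0 against 26.2 and 26.2). In scRNA-seq cluster 6, named microglia in the study, the mean of *Sall1* over both libraries was also lower (0.426 against 1.53).

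Companion lists placed the members among other myeloid genes. The members' median log2 fold change in 6-OHDA against sham was 1.84, and that of all genes tested was -0.00245. Of 18 other homeostatic microglia genes, 15 rose and 1, *Gpr165*, fell, with a median of 2. The mean of *Gpr165* in scRNA-seq cluster 6, named microglia, was 0.0129 in the 6-OHDA and 0.00813 in the 6-OHDA+NDST3 library, below the level of 0.1 used there for detection, so its change is not read as one of microglia. The largest rise among them was that of *Ctss*, a lysosomal protease gene (3.35 ± 0.283). All 11 pan-myeloid genes tested rose, with a median of 3.76, among them *Cd68* at 4.04 and *Trem2*, a lipid-sensing receptor gene, at 3.98. All 14 genes of disease-associated microglia, a phagocytic state, rose, with a median of 3.35, led by *Lgals3* at 5.29 and *Gpnmb* at 5.19. Of 8 proliferation genes 7 rose, with a median of 3.58, led by *Top2a* at 4.84 and *Ccnb1* at 4.21.
Of 8 myeloid lineage regulators 7 rose, with a median of 3.05, led by *Runx1* at 3.49 and by *Spi1*, which encodes PU.1, and *Irf8*, both at 3.45. The median of the homeostatic members was thus below those of these 5 lists, and below that of the neutrophil markers (2.78). It was above those of the monocyte or border macrophage markers (1.08) and of the members' ligands and partners (1.72). It was not tested whether the lists differ.

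**Figure D3:**
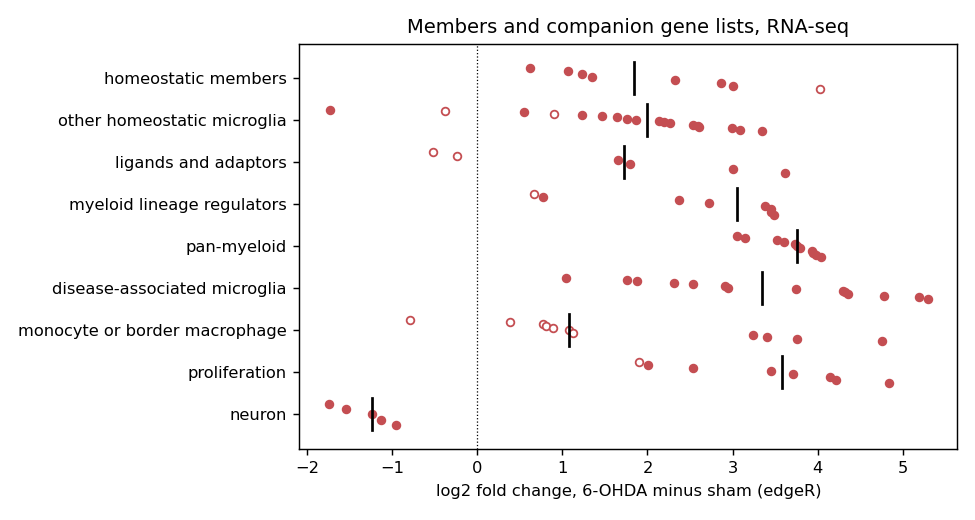
Log2 fold change in 6-OHDA minus sham (edgeR) for each gene of the members and 8 companion lists, filled where the adjusted p was under 0.05, with a vertical bar at each list's median. The members' median of 1.84 lies left of the pan-myeloid median of 3.76 and right of the neuronal median of -1.24.

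Markers of other cells moved in the same libraries. Of 11 monocyte or border macrophage markers tested 4 rose, led by *Ms4a7* at 4.75 and *Plac8* at 3.76, while *Mrc1* (1.12; adjusted p = 0.123) and *Cd163* (-0.79; adjusted p = 0.395) did not pass. Their summed TPM was 46.3 and 33.8 in sham, 117 in 6-OHDA, and 32.7 and 58.2 in 6-OHDA+NDST3. Of 4 neutrophil markers tested 3 rose, and their summed TPM was 12.3 and 10.3 in sham, 79.7 in 6-OHDA, and 29.2 and 53.6 in 6-OHDA+NDST3. All 5 neuronal markers fell, and their summed TPM was 3560 and 4007 in sham, 1183 in 6-OHDA, and 2973 and 2759 in 6-OHDA+NDST3. Summed pan-myeloid TPM was 661 and 385 in sham, 6277 in 6-OHDA, and 2185 and 3190 in 6-OHDA+NDST3. The part of these markers in the members' values was not tested. Of 5 markers each, 3 astrocyte markers rose and 1 fell, 4 mural or fibroblast markers rose, 2 endothelial markers rose and no oligodendrocyte marker passed. Of the lymphoid and dendritic markers, 1 of 2 T cell and 1 of 3 B cell markers tested rose, and of 4 dendritic cell markers 1 rose and 1 fell.

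The ligands and partners of the members did not move as 1 group. *Csf1*, a ligand of CSF1R, rose in 6-OHDA against sham (1.80 ± 0.185; adjusted p = 0.00823) and fell in 6-OHDA+NDST3 against 6-OHDA (-1.07 ± 0.186; adjusted p = 0.0361). Its CPM was 44.9 and 35.4 in sham, 139 in 6-OHDA, and 60.3 and 72.2 in 6-OHDA+NDST3. *Il34*, the other ligand, was at -0.24 ± 0.147 (adjusted p = 0.252), and *Cx3cl1*, which encodes fractalkine, at -0.52 ± 0.235 (adjusted p = 0.147). *Tyrobp*, which encodes a signalling adaptor of myeloid receptors, rose by 3.61 ± 0.346 on the log2 scale (adjusted p = 0.00823), *Tgfb1*, a cytokine gene needed for the homeostatic state, by 3.01 ± 0.381 (adjusted p = 0.00876), and *Entpd1*, an ATP-degrading ectoenzyme gene, by 1.65 ± 0.293 (adjusted p = 0.0151). In 6-OHDA+NDST3 against 6-OHDA these 3 were at -1.24, -1.25 and -0.89, with adjusted p of 0.0668, 0.0811 and 0.0979.

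In 6-OHDA+NDST3 against 6-OHDA, the members' median log2 fold change was -0.83, with 0 of 8 called. Of the other homeostatic genes 2 of 18 fell, *Ecscr* (-2.18 ± 0.293; adjusted p = 0.032) and *Mertk*, a phagocytic receptor gene (-1.05 ± 0.150; adjusted p = 0.0331). *Gpr165* rose, and *Rnase4* was at -1.52 (adjusted p = 0.0529). The mean of *Ecscr* in scRNA-seq cluster 6 was 0.126 in the 6-OHDA and 0.128 in the 6-OHDA+NDST3 library. This is close to the detection level of 0.1, so its fall in tissue is not read as one of microglia. Of the pan-myeloid genes 3 of 11 fell, with a median of -1.39 over the list, and the largest values were those of *Fcer1g* (-1.63; adjusted p = 0.0642) and *C1qa* (-1.48; adjusted p = 0.0568). Of the lineage regulators 2 of 8 fell, among them *Cebpa* (-1.15 ± 0.265; adjusted p = 0.0499), and *Runx1* was at -1.61 (adjusted p = 0.0507). Of the disease-associated genes 2 of 14 fell, with *Lgals3* at -1.75 (adjusted p = 0.171) and *Gpnmb* at -1.35 (adjusted p = 0.408). Of the proliferation genes 6 of 8 fell, with *Top2a* at -2.64 (adjusted p = 0.0408) and *Ccna2* at -2.50 (adjusted p = 0.0519). Markers of other cells moved too: 4 of 5 mural or fibroblast (median -2.44), 3 of 5 endothelial (-1.04) and 3 of 11 monocyte or border macrophage markers (-1.78) fell, and 3 of 5 neuronal markers rose (0.86). Their part in the members' values was not tested. None of these genes passed in 6-OHDA+NDST3 against sham, where no gene did by this test.

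The genes whose CPM profile over the 5 libraries lay nearest to the members' median profile were *Snx20*, *Gm5431*, *Myo1e*, *Ctsl* and *Npc2*, of 15515 candidates. Their root mean square distance was 0.0436 to 0.0595 on the log2(CPM + 1) scale. The members themselves lay farther from their own median, from 0.207 for *Csf1r* to 1.32 for *Fcrls*. With 5 libraries in 3 groups this likeness describes the group order and little else.

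In scRNA-seq the deposited values fit the mean over cells of the natural log of 1 plus the unique molecular identifier (UMI) count scaled to 10000 per cell. Cluster 6 was named microglia in the study from several of these genes, so their level there is not a finding. The 8 microglial markers beyond the members were all at or above 0.1 in cluster 6, and 7 of them were highest there. None of 12 monocyte or border macrophage markers and 1 of 6 neutrophil markers reached 0.1 in that cluster. *Csf1r* had the highest mean of the members there, with 2.45 in the 6-OHDA and 2.32 in the 6-OHDA+NDST3 library, and *Sall1* the lowest, with 0.434 and 0.418. The cells behind each mean are not counted in the table, so no error can be given.

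Averaged over both libraries, 7 of 8 members were highest in cluster 6, and *Fcrls* was at 1.22 in cluster 3 and 1.18 in cluster 6. In the 6-OHDA library *Fcrls* was higher in cluster 3 (1.44) than in cluster 6 (1.34), and in the 6-OHDA+NDST3 library it was 0.996 and 1.02. Cluster 3, which the study named monocytes, was second for 6 of the other genes, and for *Siglech* cluster 8 was second with 0.333. In cluster 3, 3 of 12 monocyte or border macrophage markers and 7 of 8 other microglial markers reached 0.1. Cluster 8 was named dopaminergic neuron or progenitor in the study, and 5 of 5 T cell and 0 of 5 neuronal markers reached 0.1 there. The drop from cluster 6 to cluster 3 differed between members. *Csf1r* went from 2.38 to 1.82 and *Cx3cr1* from 2.23 to 1.64, while *P2ry12* went from 1.80 to 0.449, *Tmem119* from 1.53 to 0.386 and *Siglech* from 1.31 to 0.285. *Gpr34* lay between, with 1.34 and 0.629, and *Sall1* had 0.426 and 0.125. Cluster 3 held the highest mean for 11 of 13 disease-associated genes listed and 8 of 12 pan-myeloid genes, while 14 of 18 other homeostatic genes were highest in cluster 6.

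Outside clusters 3 and 6, *Csf1r* (1.22) and *Cx3cr1* (0.676) were also present in cluster 1, which the study named leukocytes and where all 6 neutrophil markers were highest. The other 6 members were at 0.201 or below there in both libraries. In cluster 7, named endothelial, a type not known to use these genes, the members ranged from 0.0146 to 0.245. Values of this size in other clusters may be background, which was not tested. The members' lowest clusters were 4, with 0.0140 for *Siglech*, and 9, with 0.00508 for *Sall1*.

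**Figure D4:**
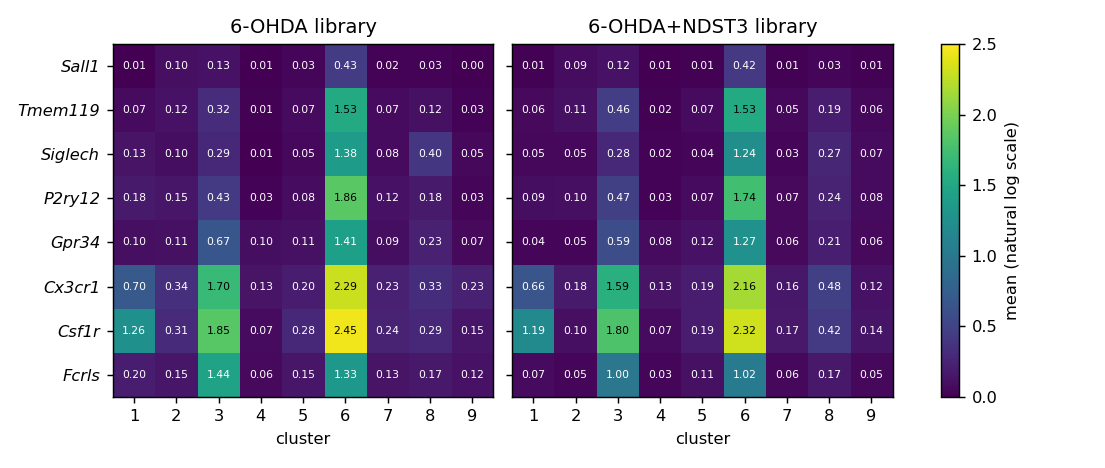
Mean of each member in the 9 clusters (natural log scale, colour and printed value) in the 6-OHDA library and the 6-OHDA+NDST3 library. Cluster 6 is brightest for all members except *Fcrls* in the 6-OHDA library, where cluster 3 reaches 1.44.

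In cluster 6 all 8 members had a lower mean in the 6-OHDA+NDST3 than in the 6-OHDA library, and 6 were lower by at least 0.1. Of the 6595 genes with a mean of at least 0.1 there, 1.83% were lower by that much. Since well-expressed genes move more on this scale, genes with a mean of at least 1 were also counted, a filter added after the data were seen, and 12% of those 690 genes and 6 of the 7 members among them were lower. *Fcrls* differed most, with 1.34 and 1.02, a difference of -0.319. *Gpr34* (-0.147), *Siglech* (-0.141), *Csf1r* (-0.130), *Cx3cr1* (-0.130) and *P2ry12* (-0.113) followed, while *Sall1* (-0.0158) and *Tmem119* (-0.0044) differed little. Lower means were not particular to cluster 6. All 8 members were also lower by any amount in clusters 2 and 7, and 7 of 8 in cluster 1. In clusters 8, 4 and 9 it was 2, 3 and 4 of 8. The share of all genes lower by any amount was not counted. In clusters 1, 2, 6 and 7 the median difference of genes with a mean of at least 0.1 was 0.00261 to 0.0066. By at least 0.1, 3 members were lower in cluster 2, 1 in cluster 1 and 0 in cluster 7. Of genes with a mean of at least 0.1 in those clusters, 3.54%, 6.21% and 0.836% were lower by that much. With 1 library per group these differences have no replicate check.

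Companion genes in cluster 6 were counted by the same size rule. Of 18 other homeostatic genes 5 were lower and 0 higher by 0.1, with *Sparc* at -0.350 and *Cst3* at -0.286. Of 12 pan-myeloid genes 2 were lower and 0 higher, and of 8 lineage regulators 0 were lower and 3 higher, *Smad3* (0.142), *Cebpa* (0.135) and *Runx1* (0.118). Of 13 disease-associated genes listed 3 were lower and 0 higher, with *Spp1* at -0.344, beyond any member, and *Ctsd* at -0.213. *Csf1* was higher by 0.105, and *Tyrobp* lower by 0.125, with 2.57 and 2.44.

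In cluster 3, *Fcrls* was lower in the 6-OHDA+NDST3 library by 0.449 and *Cx3cr1* by 0.109, whereas *Tmem119* was higher by 0.141, with 0.315 and 0.456. There, 3.69% of genes with a mean of at least 0.1 were lower and 3.42% higher by 0.1. In cluster 8, *Cx3cr1* was higher by 0.149 and *Csf1r* by 0.137, opposite to cluster 6, while *Siglech* was lower by 0.134.

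**Figure D5:**
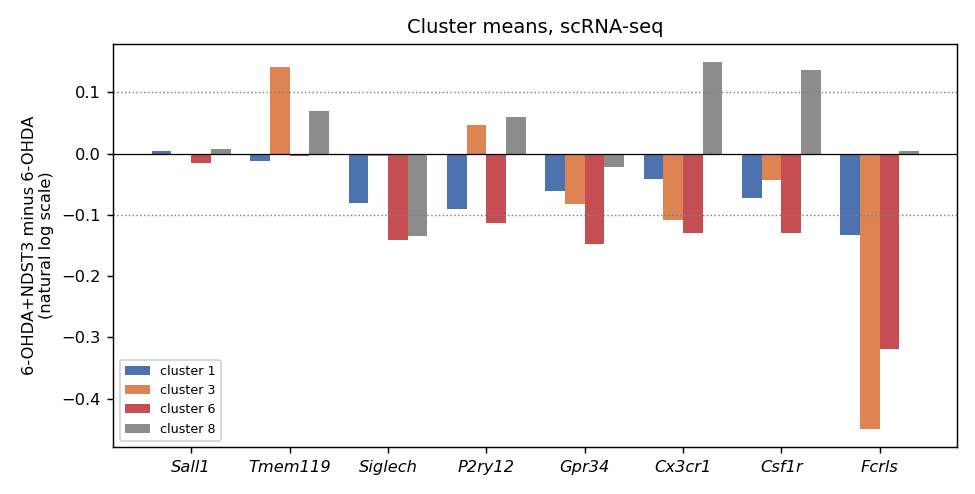
Difference between the cluster means (6-OHDA+NDST3 minus 6-OHDA, natural log scale) of each member in clusters 1, 3, 6 and 8, with dotted lines at the 0.1 size rule. The bars of cluster 6 are below zero for all members, and the longest bars are those of *Fcrls* in clusters 3 and 6.

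The genes with the cluster profile most like the members' mean scaled profile over the 18 cluster means were *Gm5086*, *Gm2629*, *Arhgap22*, *Capn3* and *G530011O06Rik*, with Pearson r of 0.993 to 0.997 among 4725 candidates. The members' own r ranged from 0.889 for *Fcrls* to 0.993 for *Gpr34*. The 18 means come from 2 libraries and are not independent.

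In ATAC-seq the table lists regions within 1000 bases of a gene start, 3582 in all. The *Sall1* region, 100 bases wide and 306 bases from the start, had a tag signal of 7.06 in sham, 5.25 in 6-OHDA and 4.73 in 6-OHDA+NDST3, with 1 library per group. After adding 1 to each value, the ratio was 0.775 for 6-OHDA to sham, 0.711 for 6-OHDA+NDST3 to sham and 0.917 for 6-OHDA+NDST3 to 6-OHDA, none of them a 2-fold change. The median ratio over all regions was 1.08 for 6-OHDA to sham and 1.08 for 6-OHDA+NDST3 to 6-OHDA. The region was among the weaker ones, above 14.2% of regions in sham, 7.87% in 6-OHDA and 7.09% in 6-OHDA+NDST3. *Sall1* RNA was higher in 6-OHDA than in sham while this signal was lower, in different libraries, and the difference in signal has no replicate check.

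No member was among the 7253 genes of the 11424 H3K27ac CUT&RUN regions, which are likewise near gene starts. A table of selected regions does not show that a gene lacks the mark. Of the ligands and partners, *Cx3cl1* and *Entpd1* had regions there. The *Entpd1* region, 16 bases from the start, had a signal of 2.88 in sham, 5.70 in 6-OHDA and 20.5 in 6-OHDA+NDST3, each value being 1 pooled number for 2 libraries. Its ratio of 6-OHDA+NDST3 to 6-OHDA was 3.21 after adding 1, against 1.33, 1.02 and 1.21 for the 3 *Cx3cl1* regions and a median of 1.31 over all regions.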

How the data were processed

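The authors aligned RNA-seq reads to mm10 with HISAT2 and quantified genes with StringTie. The deposited table holds read counts with FPKM and TPM per library. The deposited scRNA-seq cluster means, made by the authors with Cell Ranger and Seurat, fit a natural log scale. Cells with very many detected genes were removed by the authors to limit multiplets, no doublet caller is named in the sources used here, and cluster means allow no such step. The deposited CUT&RUN and ATAC-seq tables hold 1 tag signal per region and group, how it was scaled is not given in the sources used here, and blank ATAC-seq values were left out. Starts implied by the region coordinates lay within 1000 bases of a GRCm38 gene end for 10.1% of ATAC-seq and 4.07% of CUT&RUN regions, so no region coordinate is given. The processing notes of the submitters name bcl2fastq, Trim Galore, Bowtie and Cell Ranger.

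Counts of all 5 libraries were fitted in 1 edgeR model (version 4.0.16, TMM factors, filterByExpr, quasi-likelihood test, Benjamini-Hochberg adjustment over 19300 genes, 2 residual degrees of freedom), tested on simulated data first. Member counts ran from 257 to 27619 per library. Counting error was not compared with the spread between libraries, which was very small for some genes, as for *Sall1* in sham (33.45 and 33.44 CPM). DESeq2 1.42.0, limma 3.58.1 after taking log2 of FPKM plus 1 or plus 0.1, other scalings and filters, a replicate block and leaving out libraries were alternatives. scRNA-seq and region values got no test. Replicate numbers are not stated to pair animals.

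The members and lists were chosen with earlier results of these data known. Named were all members, all ligands and partners, the genes of largest change per list, and the 5 nearest profiles; other names were chosen after their values were seen. *Aif1* and 9 further list genes were not analysed in RNA-seq, and some list genes are not reported here by name.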

Additional observations from a re-analysis of the deposited data

Results flagged for a closer look

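Some members differed between the 6-OHDA+NDST3 and 6-OHDA libraries in opposite directions in 2 scRNA-seq clusters, by at least 0.1 on the natural log scale each way. *Cx3cr1* was higher with NDST3 by 0.149 in cluster 8 and at -0.13 in cluster 6. *Csf1r* was higher by 0.137 in cluster 8 and at -0.13 in cluster 6. In cluster 8 the means of both genes were below 0.5 in either library, and 6.95% of the genes with a mean of at least 0.1 there were higher by this size and 6.52% lower. The difference between clusters was not tested, since each group has 1 library.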

How the results depend on the processing

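No member changed direction in any of the 3 RNA-seq comparisons under any alternative. In 6-OHDA against sham the number of members called was 7 and stayed within 1.5 times of that under other scalings, filters, DESeq2 and limma; with 1 replicate left out it ranged from 0 (without either sham replicate) to 8. The replicate block gave 5, 0 and 0 members in 6-OHDA against sham, 6-OHDA+NDST3 against 6-OHDA and 6-OHDA+NDST3 against sham. Deviations of libraries of the same number correlated at r = -0.432 over genes; with the numbers crossed, a replicate block added after seeing the data gave 8, 5 and 7 members, beside 3845 genes higher, 2289 lower and 1024 higher of 19300. In 6-OHDA+NDST3 against 6-OHDA the count of 0 became 2 by the 2-fold threshold and 5 with DESeq2. It became 2 with RLE factors, where 1309 of 19300 genes were lower. With a CPM of at least 1 in at least 2 libraries it was 2, where 1510 of 15755 genes were lower. With 1 replicate left out, the log2 fold change ran from -1.87 to -1.02 for *Gpr34* and from -3.29 to -0.26 for *Fcrls*. In 6-OHDA+NDST3 against sham the count of 0 became 3 by the 2-fold threshold and 5 with DESeq2. The causes were not tested. In cluster 6, 1 member was lower by at least 0.25 and 6 by at least 0.05, 8 of 8 members were highest there in the 6-OHDA+NDST3 means, and no alternative made the *Sall1* ATAC-seq region a change. The CUT&RUN alternatives gave no value without a member region. Comparisons with 6-OHDA rest on 1 library of that group.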

Other observations

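H3K27ac CUT&RUN regions near *Mef2a*, a myeloid lineage regulator chosen after its values were seen, differed between the pooled group signals. A region at -469 bases from the start had a signal of 11.99 in sham, 23.1 in 6-OHDA and 70.2 in 6-OHDA+NDST3, and another one near it had 21.7, 13.4 and 15.4. The median ratio over all regions was 1.09 for 6-OHDA to sham and 1.31 for 6-OHDA+NDST3 to 6-OHDA, after adding 1. The RNA of *Mef2a* was at a log2 fold change of 0.67 in 6-OHDA against sham (edgeR adjusted p = 0.166) and -0.05 in 6-OHDA+NDST3 against 6-OHDA (adjusted p = 0.923). In scRNA-seq cluster 2, named astrocytes, *Csf1r* was at 0.312 in the 6-OHDA and 0.0998 in the 6-OHDA+NDST3 library and *Cx3cr1* at 0.339 and 0.179, and 9 of 12 pan-myeloid genes were lower by at least 0.1 there, against 3.54% of all genes with a mean of at least 0.1. Gene by gene, the 6-OHDA+NDST3 value in cluster 2 was above that in cluster 7 for *Sall1* (0.0871 against 0.0146) and *Tmem119* (0.114 against 0.0534). The same held for *P2ry12*, *Cx3cr1* and *Siglech*. It was lower for *Csf1r* (0.0998 against 0.169), *Gpr34* and *Fcrls*. Whether the values in cluster 2 are background was not tested.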
